A study of Mus musculus with 6 samples.

Results

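Open chromatin was described at 8 genes that encode output and ROR factors of the circadian clock: Rora, Nfil3, Dbp, Tef, Hlf, Bhlhe40, Bhlhe41 and Ciart. A called peak belonged to a gene when the summit of the peak lay inside that gene, or within 100 kb of it with no protein-coding gene nearer. The 8 genes, of 21887 protein-coding genes in the mouse table used, held 159 of the 134174 regions formed by joining overlapping peaks of the 6 libraries. The cells were CD8+ T cells from mouse spleen, purified by depletion of other cells and activated with antibodies to CD3 (5 µg/mL) and CD28 (1 µg/mL). Culture lasted 48 h in transwells, dishes in which a porous membrane separates 2 cell populations, with the T cells below. PD-1-resistant lung adenocarcinoma cells sat in the insert above, either the control line (Res-ctrl, 3 libraries) or the line with an shRNA against Fabp7, a fatty acid binding protein (Res-shFabp7, 3 libraries). Both groups of T cells shared the isolation, the activation and the resistant tumour parent, and the knockdown was in the tumour cells only. The sources used here do not give mouse strain, age or the number of tumour clones. The comparison addressed whether T cell chromatin opens differently when the tumour cells across the membrane carry the Fabp7 knockdown.

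The clock is a feedback loop in which CLOCK and BMAL1 activate genes through the E-box, CACGTG, and output factors pass the rhythm on to other genes. RORA is a nuclear receptor that activates genes carrying a ROR element, where the REV-ERB receptors repress; in lymphocytes it is known for its part in type 2 innate lymphoid cells and Th17 cells. DBP, TEF and HLF are related bZIP activators of the D-box, and NFIL3 (E4BP4), needed for NK cell development, represses from the same element. BHLHE40 and BHLHE41 (DEC1 and DEC2) bind E-boxes as repressors, with BHLHE40 known for cytokine control in activated T cells, and CIART (CHRONO) represses CLOCK-BMAL1.

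The bases before the listed start sites were searched for the clock's own elements, and elements elsewhere in a gene were not searched. Of the 8 genes, 7 matched the promoter table of RefSeq (GRCm38.p6, whose primary assembly is that of mm10), with 8 start sites because Tef has 2. Bhlhe40 had no entry, so its start was not searched. The sequences below are RefSeq's, 5′ to 3′ on the strand of the gene, and end at the base before the start site. Capitals mark the E-box CACGTG in the first 4 lines and the ROR element in the last. Ciart is chr3:95882229-95882478 on the minus strand, the Tef windows are chr15:81802423-81802672 and chr15:81811164-81811413 on the plus strand, and Bhlhe41 is chr6:145865421-145865670 on the minus strand. The Nfil3 line is the last 30 bases before its start, chr13:52981040-52981069 on the minus strand.
Ciart: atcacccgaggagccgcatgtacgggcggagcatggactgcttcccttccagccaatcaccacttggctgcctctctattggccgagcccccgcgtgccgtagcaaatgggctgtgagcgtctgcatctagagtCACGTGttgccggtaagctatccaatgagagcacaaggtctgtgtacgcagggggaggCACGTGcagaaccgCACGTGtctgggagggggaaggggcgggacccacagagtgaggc
Tef, first start: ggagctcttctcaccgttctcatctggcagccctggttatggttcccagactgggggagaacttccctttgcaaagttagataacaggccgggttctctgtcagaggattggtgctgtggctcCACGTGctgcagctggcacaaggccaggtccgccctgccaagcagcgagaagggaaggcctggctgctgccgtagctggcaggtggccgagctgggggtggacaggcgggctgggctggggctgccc
Tef, internal start: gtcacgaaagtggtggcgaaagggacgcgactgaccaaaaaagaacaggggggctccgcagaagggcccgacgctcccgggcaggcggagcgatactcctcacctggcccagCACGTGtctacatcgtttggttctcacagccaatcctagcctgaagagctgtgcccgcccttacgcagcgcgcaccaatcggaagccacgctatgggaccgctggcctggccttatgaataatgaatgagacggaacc
Bhlhe41: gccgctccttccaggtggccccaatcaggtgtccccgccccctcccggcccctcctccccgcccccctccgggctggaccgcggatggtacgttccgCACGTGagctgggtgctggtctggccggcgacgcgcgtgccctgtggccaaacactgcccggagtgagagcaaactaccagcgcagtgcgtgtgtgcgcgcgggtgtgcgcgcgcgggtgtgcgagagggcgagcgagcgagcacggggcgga
Nfil3, last 30 bases: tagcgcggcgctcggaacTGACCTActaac

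The E-box, the ROR element and 2 forms of the D-box were searched on both strands of the 250 bases before each start. The E-box CACGTG was found in 4 of the 8 member windows and in 6.02% of 32851 windows of all genes. Ciart held 3 copies, beginning at −116, −58 and −44 (negative positions are upstream of the start). Only 20 windows of all genes, 0.0609%, held 3 or more. The Tef windows held 1 copy each, at −127 and −138, and Bhlhe41 held 1 at −153. The ROR element TAGGTCA was in 1 member window, that of Nfil3, where its reverse complement begins at −12, and in 2.23% of all windows. The D-box forms TTATGTAA and TTACGTAA, in 0.819% and 0.113% of all windows, were in 0 of the 8. A match is a description of these letters and shows no binding. A region called in all 6 libraries overlapped 6 of the 8 member windows, the exceptions being Rora and Bhlhe41, and 36.4% of 32814 windows of all genes.

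Peak lists held 100243 to 105796 peaks with Res-shFabp7 and 82153 to 96310 with Res-ctrl. A relative measure of depth, the most frequent background recovered from a list's own pileup and fold, was 0.868 to 1.03 and 0.608 to 1.01; the library highest in both in the Res-ctrl group was replicate 3. Depth and tumour cell line therefore move together for Res-ctrl replicates 1 and 2, and a missing peak does not show closed chromatin. The 6 CD8 T cell marker genes found in the gene table (Cd3e, Cd3d, Cd8a, Cd8b1, Bcl11b and Runx3) each had a region called in all 6 libraries. So did 3 of 3 CD4 and regulatory T cell markers, 3 of 3 Th17 and type 3 innate lymphoid, 2 of 3 type 2 innate lymphoid and 1 of 3 NK cell markers. The same held for 3 of 4 myeloid, 2 of 4 B cell and 2 of 4 epithelial markers, so that a called region did not by itself separate cell types. Ms4a1, Krt8 and Sftpc had 0 peaks in every library.

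Each of the 8 genes had at least 1 region called in all 6 libraries, and the number of peaks at each overlapped between the groups. Numbers of peaks between genes were compared per 100 kb of the sequence nearest to each gene, as the mean over the 6 libraries. Dbp had 56.5 peaks per 100 kb, on only 5.31 kb of sequence; the lowest densities were those of Rora, 6.13 (range over libraries 5.12 to 6.91), and Hlf, 3.04 (2.38 to 3.96). In between lay Bhlhe41 at 19.2 (15.3 to 20.3), Bhlhe40 at 15.8 (12.6 to 17.6), Ciart at 14.4 (12.4 to 24.7), Nfil3 at 14.3 (13.3 to 15.4) and Tef at 14.0 (10.5 to 21.0). Those 5 ranges overlapped from one to the next, whereas the ranges of Rora and Hlf did not touch each other or the 5. The Ciart value rests on 1 region and only 8.09 kb of sequence, and its upper limit on 2 peaks in Res-ctrl replicate 1. The median over all 21887 genes was 5.09, with quartiles of 0.0302 and 12.4.

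**Figure D1:**
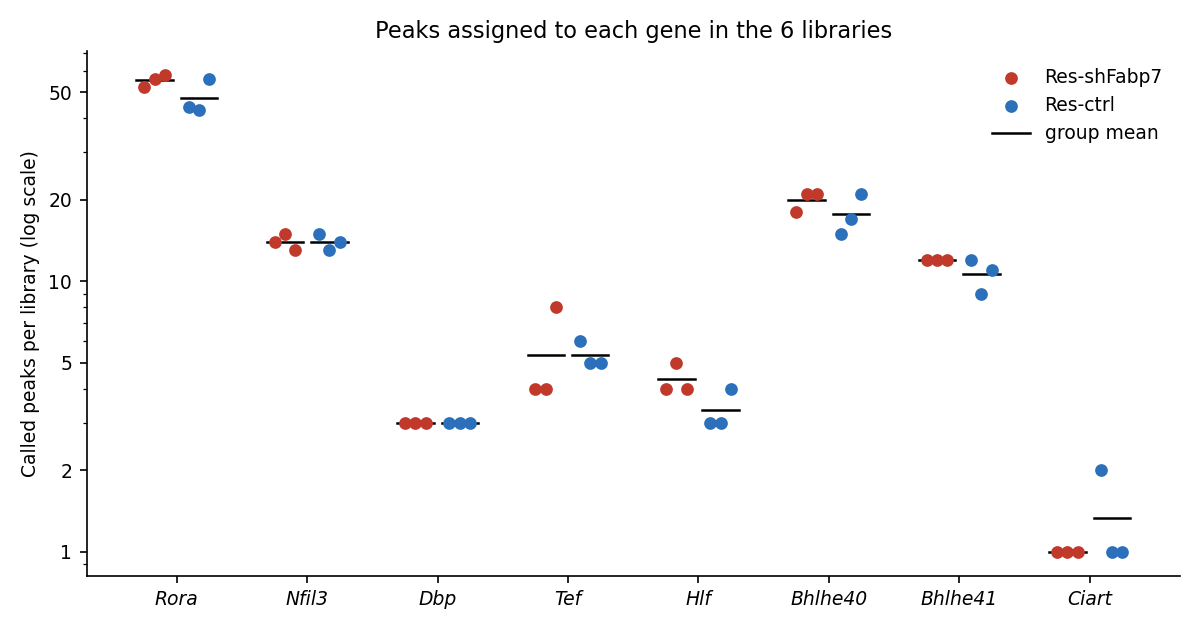
Called peaks (log scale) assigned to each of the 8 genes, 1 point per library, with Res-shFabp7 in red, Res-ctrl in blue and a line at each group mean. The groups overlap at every gene, and Rora holds the most peaks, 43 to 58 per library.

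Rora (gene ID 19883, chr9:68653404-69388246, plus strand) held 81 regions, all inside the gene, of which 28 were called in all 6 libraries and 27 in only 1. The libraries with Res-shFabp7 had 52, 56 and 58 peaks there and those with Res-ctrl 44, 43 and 56. Replicates 1 and 2 of Res-ctrl were lower than every other, and Res-ctrl replicate 3 was as high as the Res-shFabp7 libraries. The means were 55.3 ± 3.06 and 47.7 ± 7.23 (SD, n = 3), with a two-sided exact permutation p of 0.3, where 3 against 3 libraries can reach 0.1 at the least. With every list shortened to its strongest 82153 peaks, the counts were 40, 42 and 44 against 43, 43 and 44. In the full lists, most marker sets also had a higher range of peaks with Res-shFabp7. Every full Res-shFabp7 list was longer than every Res-ctrl list, and marker peaks were not counted in lists of equal length. The 3 type 2 innate lymphoid markers had 14 to 15 peaks with Res-shFabp7 and 8 to 14 with Res-ctrl, and the 3 Th17 and type 3 innate lymphoid markers 28 to 31 and 18 to 26. The CD8 T cell markers had 138 to 143 and 118 to 138, the myeloid markers 10 to 13 and 8 to 10, the B cell markers 6 to 10 and 5 to 6, the NK cell markers 14 to 16 and 11 to 15 and the epithelial markers 17 to 18 and 12 to 13. The CD4 and regulatory T cell markers, at 24 to 26 and 22 to 28, lay within the Res-ctrl range. The part of other cells in the Rora counts was not tested.

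The regions of Rora lay far into the gene. No region overlapped the 250 bases before its listed start, and none lay in the 100 kb after it. The nearest was at +176399 bp, in 1 library, and the nearest in all 6 libraries at +303346 bp. By 100 kb steps from the start, the regions numbered 0, 1, 6, 16, 15, 12, 24 and 7, and those called in all 6 libraries 0, 0, 0, 8, 7, 3, 9 and 1. Open sequence of Rora thus sat far downstream of its listed start, and 9 of the 28 common regions lay between 600 and 700 kb. Only 1 start of Rora was listed, so whether any of these regions lies at an internal start was not tested.

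**Figure D2:**
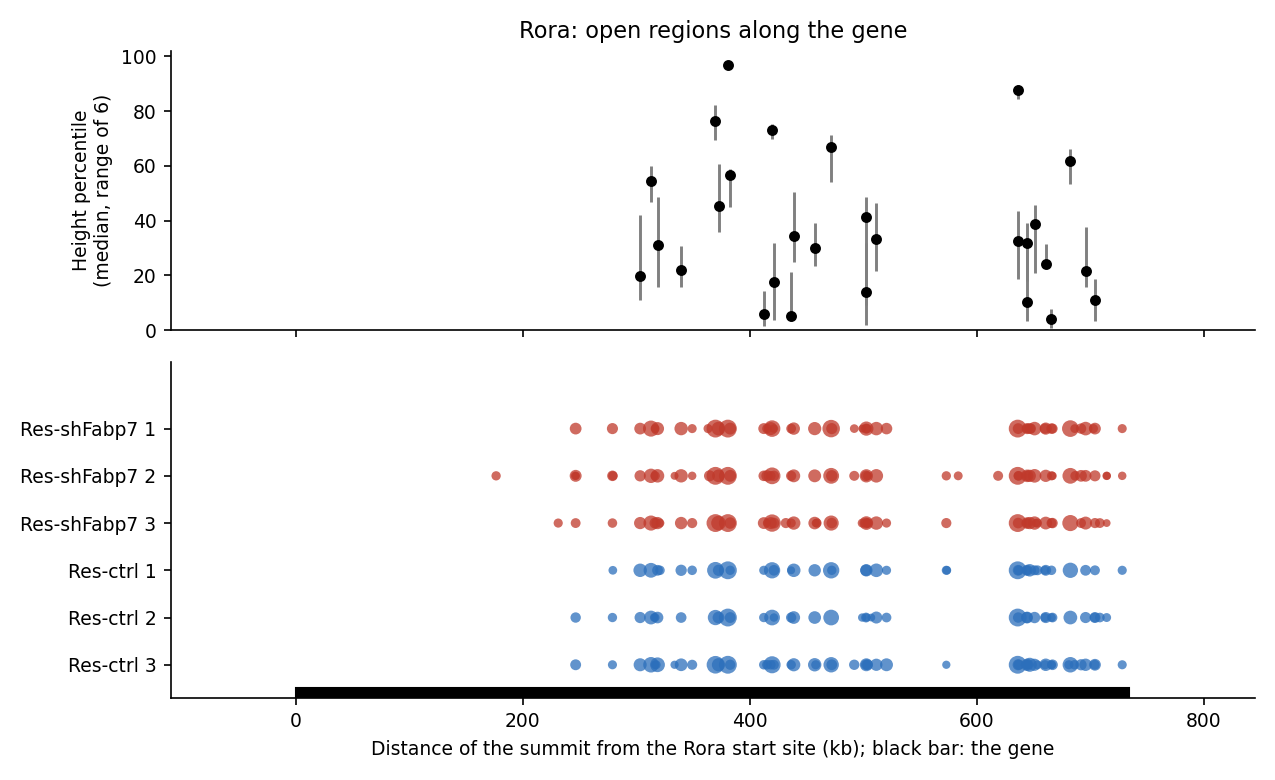
Regions of Rora by distance of the summit from the start site (kb). Above, the height percentile of each region called in all 6 libraries (point, median; line, range over the 6 libraries); below, 1 dot per region and library in which it was called, larger with a higher −log10 q, and the gene as a black bar. All 28 common regions lie beyond 303 kb.

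Heights were compared as percentiles: the pileup (read coverage) at a region's highest summit was ranked within a library among the 56610 regions called in all 6 libraries. The highest region of Rora, chr9:69034015-69034915 at +380656 bp, had pileups of 294, 250 and 305 with Res-shFabp7 and 230, 207 and 318 with Res-ctrl. Its percentiles were 97.0, 96.0 and 97.2 against 96.7, 96.9 and 96.9, so that it ranked alike in every library. Next came chr9:69289497-69290129 at +636078 bp, with percentiles of 84.7, 87.6 and 84.5 against 87.5, 87.9 and 89.3. Heights then graded down, with medians over the 6 libraries of 76.5 at +369718 bp and 73.2 at +419611 bp. Most regions of the gene were lower: the median percentile of the 28 was 32.2, and 11 were below the 25th.

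Among the D-box factors, the repressor Nfil3 (gene ID 18030, chr13:52967209-52982878, minus strand) was the one with group-specific regions. It held 18 regions, 10 in all 6 libraries, and 14, 15 and 13 peaks with Res-shFabp7 against 15, 13 and 14 with Res-ctrl. The means were both 14 ± 1 (SD, n = 3; exact permutation p = 1), and with lists of equal length the counts were 12, 11 and 11 against 15, 13 and 12. The listed start, 52981039, lies inside the gene and not at its outer end, 52982878. At this start, chr13:52980574-52981275 had its summit at −27 bp, close to the ROR element in the line printed for Nfil3. This region, the highest of Nfil3, had percentiles of 74.1, 75.4 and 71.2 with Res-shFabp7 and 80.8, 80.6 and 76.2 with Res-ctrl. All 3 Res-ctrl values were above the Res-shFabp7 values, but the difference did not pass in limma (unadjusted p = 0.0742, adjusted p = 0.366). An unadjusted limma p under 0.05 was found for 15.7% of all common regions, and the share whose groups separate was not counted. Of the 10 common regions, 6 lay outside the gene, the farthest at 41546 bp from it. The nearest of those, chr13:52982752-52983074, lay 143 bp beyond the outer end, with percentiles from 50.6 to 66.8 over the 6 libraries.

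Among the 18 regions of Nfil3, 2 had a peak in all 3 Res-shFabp7 libraries and in no Res-ctrl library, as did 2.28% of all regions and 3 of the 159 at the 8 genes. One, chr13:52985892-52986068, lay at −4966 bp, 3127 bp outside the gene. It had −log10 q values of 7.48, 14.9 and 14.3 and pileups of 28, 38 and 36 in the Res-shFabp7 libraries. Those peaks were in the middle of their lists in 2 libraries, at percentiles of 55.9 and 51.3 by q, and at 30.1 in replicate 1. A region called in all 6 libraries lay beside it, at −5417 bp, and the 2 become 1 region when peaks within 200 bp are joined. The other, chr13:52973524-52973726, lay inside the gene at +7460 bp, with weaker −log10 q values of 8.73, 3.60 and 11.1 and pileups of 18, 10 and 19. With equal numbers of peaks, only the region at −4966 bp was still called in all Res-shFabp7 and no Res-ctrl libraries.

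Equal numbers also gave Nfil3 a region called only with Res-ctrl, chr13:53001497-53001657, 18728 bp outside the gene. In the full lists it had peaks in 2 Res-shFabp7 libraries, with −log10 q of 3.04 and 4.48, and in the 3 Res-ctrl libraries, with 10.3, 4.50 and 5.28. The shortened Res-shFabp7 lists end at −log10 q of 5.62, 5.24 and 5.54, above both of its peaks there, whereas those of Res-ctrl end at 2.77, 1.31 and 4.98.

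Dbp (gene ID 13170, chr7:45705100-45710203, plus strand), whose transcript is among the most rhythmic in many tissues, had the same 3 peaks in each of the 6 libraries. The start region, chr7:45704720-45705323 with its summit at −265 bp, had percentiles of 98.8, 98.5 and 99.0 with Res-shFabp7 and 98.9, 98.8 and 98.9 with Res-ctrl. Inside the gene, the regions at +1855 and +2582 bp ranged from 72.4 to 79.4 and from 76.1 to 83.3. Dbp was thus open at 3 places of middle to high rank in all 6 libraries. Its neighbours are close: Car11 lies 412 bp away and Sphk2 overlaps it, so reads at its ends may belong to either.

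Tef (gene ID 21685, chr15:81802673-81826863, plus strand) held the highest region of all 8 genes. This region, chr15:81810843-81811759, lay at its internal start, with the summit at −72 bp and the E-box of the printed window under it. Percentiles were 99.6, 99.7 and 99.5 with Res-shFabp7 and 99.7, 99.7 and 99.8 with Res-ctrl. At the first start, chr15:81802365-81802866 had 58.7, 50.6 and 43.2 against 49.0, 48.6 and 42.8, far below the internal start in every library. Peaks numbered 4, 4 and 8 against 6, 5 and 5 (5.33 ± 2.31 and 5.33 ± 0.577, SD, n = 3; exact permutation p = 1). The caller divided the internal start region into 2 peaks in Res-shFabp7 replicate 3 and in Res-ctrl replicate 1, which added 1 peak there. Res-shFabp7 replicate 3 also had peaks in 3 regions that the other Res-shFabp7 libraries lacked, at +295, +8032 and +15925 bp from the first start; the one at +8032 bp was called in all 3 Res-ctrl libraries.

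Hlf (gene ID 217082, chr11:90336535-90390917, minus strand), the third activator, was the most sparsely covered, with 4, 5 and 4 peaks with Res-shFabp7 and 3, 3 and 4 with Res-ctrl. The means were 4.33 ± 0.577 and 3.33 ± 0.577 (SD, n = 3; exact permutation p = 0.3). Its start region, chr11:90390809-90391093 at +20 bp, had percentiles of 33.6, 29.3 and 28.4 with Res-shFabp7 and 33.8, 24.0 and 23.2 with Res-ctrl. Its highest common region lay at −27152 bp, chr11:90417880-90418293, with percentiles from 26.3 to 55.7. The starts of the 3 activators differed in rank in every library, from the internal Tef start and Dbp near the top to Hlf in the lower part.

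**Figure D3:**
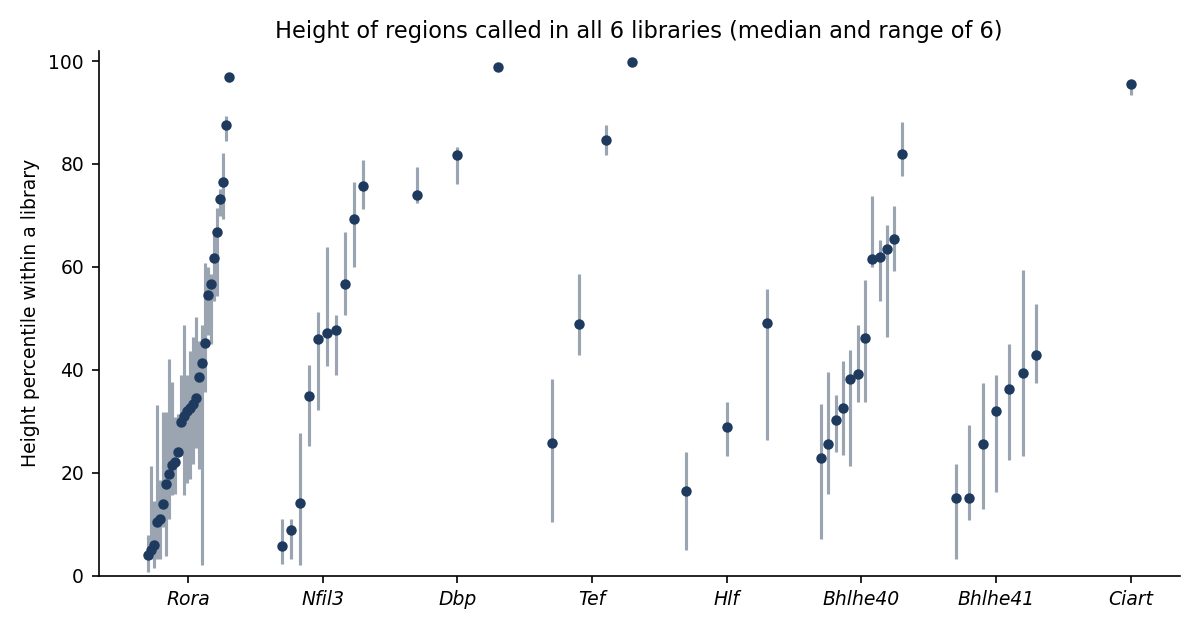
Height percentile within a library of each region called in all 6 libraries, by gene and in order of height (point, median; line, range over the 6 libraries). Regions of Dbp, Tef and Ciart reach above the 90th percentile, as does 1 of the 28 regions of Rora. Every point of Hlf and Bhlhe41 lies below 50.

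Bhlhe40 (gene ID 20893, chr6:108660629-108666925) was surrounded by open sequence: 28 of its 31 regions lay outside the gene, up to 53574 bp away. Peaks numbered 18, 21 and 21 with Res-shFabp7 and 15, 17 and 21 with Res-ctrl (20 ± 1.73 and 17.7 ± 3.06, SD, n = 3; exact permutation p = 0.4). Its highest region, chr6:108659963-108660759, had a summit 134 bp outside the gene at its lower-coordinate end. The percentiles were 87.3, 80.0 and 83.9 against 77.7, 78.9 and 88.2, so the groups overlapped. Of the 31 regions, 12 were called in all 6 libraries and 14 in only 1. One region was called only with Res-shFabp7, chr6:108606751-108607152, which was also the farthest from the gene. The next gene on that side, Itpr1, lies 109512 bp from Bhlhe40, so the region was almost as near to Itpr1. At a gene distance of 20 kb the region was not assigned to Bhlhe40. Its −log10 q values were 7.73, 9.73 and 4.87 and its pileups 12, 13 and 9. This region was not group-specific with equal numbers of peaks.

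Bhlhe41 (gene ID 79362, chr6:145858243-145865420, minus strand), the paralogue, had 12 peaks in each Res-shFabp7 library and 12, 9 and 11 with Res-ctrl (12 ± 0 and 10.7 ± 1.53, SD, n = 3; exact permutation p = 0.4). Lists of equal length had 9, 9 and 8 against 10, 9 and 9. Its start was weakly covered. A region of 107 bp over the start, chr6:145865358-145865464, was called in 2 Res-shFabp7 libraries, and one at −836 bp in 2 libraries of each group. The highest of its 7 common regions, chr6:145883704-145884018, lay at −18404 bp, with percentiles of 44.8, 40.9 and 50.6 against 37.4, 40.8 and 52.9. The E-box window of Bhlhe41 was thus not under a region called in all 6 libraries, unlike the E-box windows of Tef and Ciart.

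Ciart (gene ID 229599, chr3:95878500-95882257, minus strand) had 1 region, chr3:95881857-95882865, which was 1009 bp long and covered the window with the 3 E-boxes. Peaks numbered 1, 1 and 1 with Res-shFabp7 and 2, 1 and 1 with Res-ctrl. Pileups were 259, 260 and 271 with Res-shFabp7 and 173, 160 and 273 with Res-ctrl. As percentiles, these were 95.8, 96.4 and 96.1 against 93.4, 94.1 and 95.4. The groups did not overlap, but the share of all common regions with such a separation was not counted. The difference in normal score was 0.18 ± 0.0827 (SE), with an unadjusted p of 0.0724 and an adjusted p of 0.363 in limma. An unadjusted limma p under 0.05 was found for 15.7% of all common regions.

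**Figure D4:**
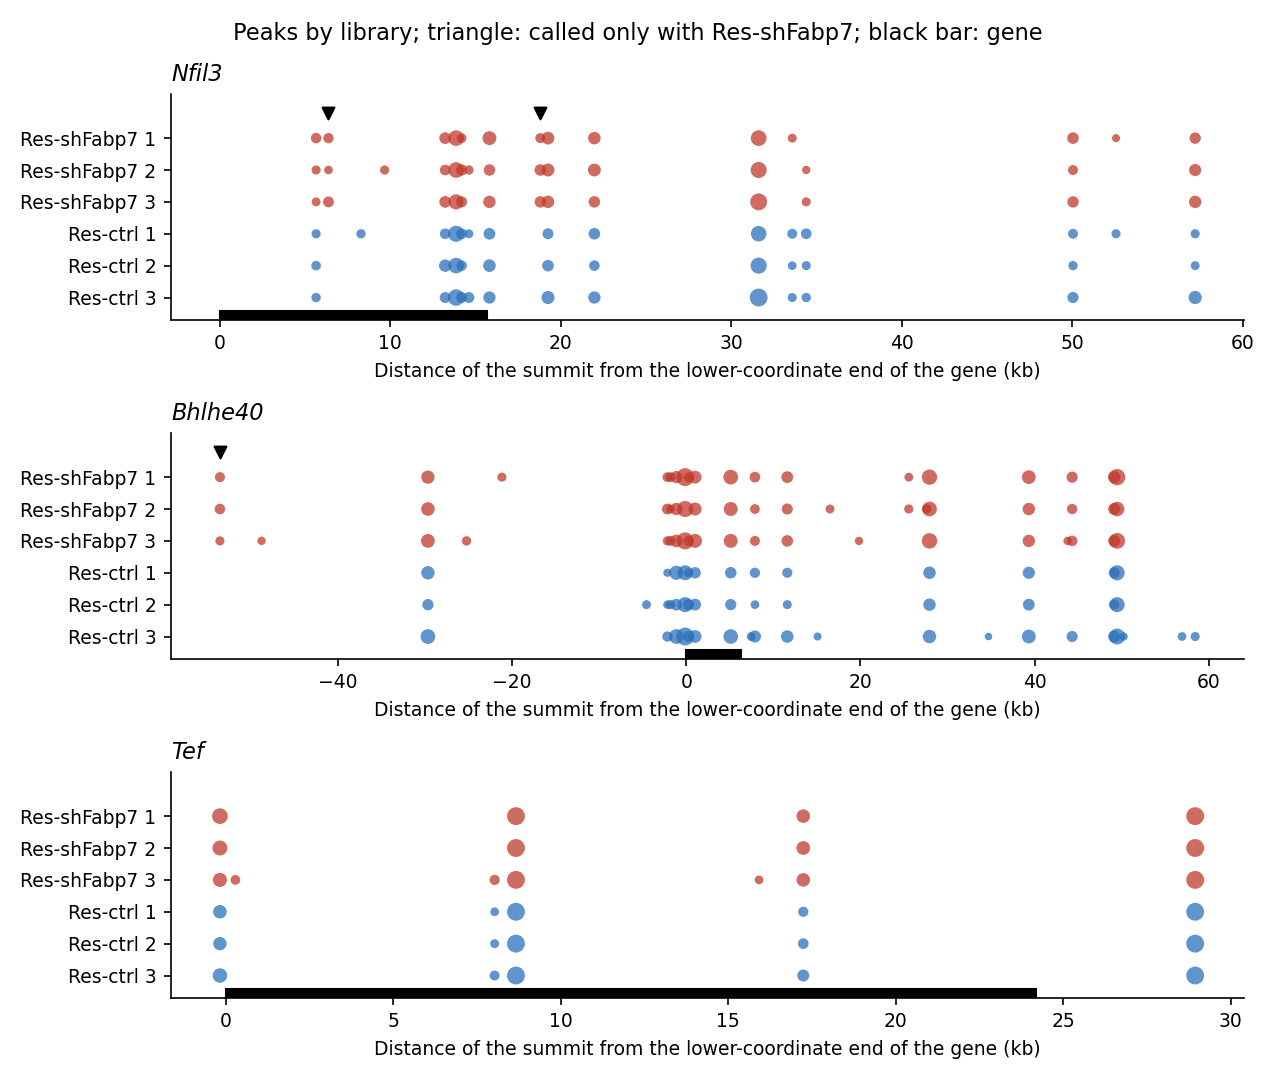
Regions of Nfil3, Bhlhe40 and Tef by distance of the summit from the lower-coordinate end of the gene (kb), 1 dot per region and library in which it was called, larger with a higher −log10 q; the black bar is the gene. Triangles mark the 3 regions with a peak in every Res-shFabp7 library and no Res-ctrl library, 2 at Nfil3 and 1 at Bhlhe40.

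Over the 8 genes together, libraries with Res-shFabp7 had 108, 117 and 120 peaks and those with Res-ctrl 100, 94 and 115. The means were 115 ± 6.25 and 103 ± 10.8 (SD, n = 3), a difference of 12 peaks, with a two-sided exact permutation p of 0.2, and Res-ctrl replicate 3 lay within the Res-shFabp7 range. Per 1000 peaks of a library the order was the other way, 1.11 ± 0.0823 and 1.17 ± 0.0255 (SD, n = 3; exact permutation p = 0.4). That difference of −0.0604 became −0.0208 without Res-shFabp7 replicate 1 and −0.103 without Res-shFabp7 replicate 3. Lists of equal length gave 88, 93 and 93 against 97, 94 and 92, a difference of −3 (exact permutation p = 0.4). Without Res-ctrl replicate 3 the difference was 18 peaks (exact permutation p = 0.1). Since 3 against 3 libraries cannot go below 0.1, these tests could not have passed a threshold of 0.05, and they do not show that the groups were alike.

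Of the 159 regions, 68 (42.8%) were called in all 6 libraries, beside 42.2% of all regions. Another 3 of the 159 (1.89%) were called only with Res-shFabp7, beside 2.28% of all regions, and 0 only with Res-ctrl, beside 0.155%. With equal numbers of peaks, 123 regions were formed at the 8 genes, 1 of them (0.813%) only with Res-shFabp7, beside 1.13% of all regions, and 1 only with Res-ctrl, beside 0.527%. Counts of 0 to 3 regions are too few to set these shares apart from the background. Regions in 1 library only made up 29.6% at the 8 genes and 23.3% of all regions, and 27 of those 47 lay in Rora. Without Res-ctrl replicate 3, regions called only with Res-shFabp7 numbered 8 of 149 (5.37%) in place of 3, beside 5.34% of all regions. Without Res-shFabp7 replicate 1, those called only with Res-ctrl numbered 3 of 156 (1.92%) in place of 0, beside 0.357%. Against Res-ctrl replicate 3 alone, 4 of 159 (2.52%) were called only with Res-shFabp7, beside 4.13%. Where 2 of 3 libraries sufficed, 5 (3.14%) were specific to Res-shFabp7, beside 7.28% of all regions, and 1 (0.629%) to Res-ctrl, beside 1.1%. With a required cover of 50% of a region by its peaks, 42 (26.4%) were held by all 6 libraries, beside 32.4%.

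Heights of the 68 common regions were compared by limma on normal scores of the within-library ranks, with Benjamini-Hochberg adjustment over all 56610 common regions. None of the 68 was higher or lower with Res-shFabp7 at an adjusted p under 0.05, where 0.00177% of all regions passed as higher and 0.0% as lower. At an unadjusted p under 0.05 there were 11 of the 68 (5 higher, 6 lower), 16.2%, beside 15.7% of all regions. The median difference was −0.02 at the 8 genes and −0.01 over all regions. In height, 4 of the 68 were above the 90th percentile, beside 9.92% of all, and the median percentile of the 68 was 38.4, beside 49.5.

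The lowest adjusted p belonged to chr15:81819494-81820178 in Tef, at +8505 bp from the internal start. Its pileups were 33, 32 and 33 with Res-shFabp7 and 11, 12 and 20 with Res-ctrl, and its percentiles 35.1, 38.2 and 37.0 against 10.5, 15.8 and 16.6. No Res-ctrl library came near the Res-shFabp7 libraries, yet the score difference of 0.74 ± 0.102 (SE) had an adjusted p of 0.107, with 0.0747 to 0.259 over 14 settings. Next was chr6:108688404-108688927, 21634 bp outside Bhlhe40, with percentiles of 56.5, 55.1 and 57.4 against 33.8, 37.2 and 36.0. Its groups did not overlap either, and its difference was 0.53 ± 0.0745 (SE), with an adjusted p of 0.109 (0.0757 to 0.370 over 13 settings). In the other direction, chr9:69290222-69290547 in Rora had 27.8, 18.7 and 26.8 against 43.6, 42.5 and 37.2, a difference of −0.47 with an adjusted p of 0.171. These 3 regions were singled out by their p-values, and none passed. The share of all common regions whose groups do not overlap was not counted.

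**Figure D5:**
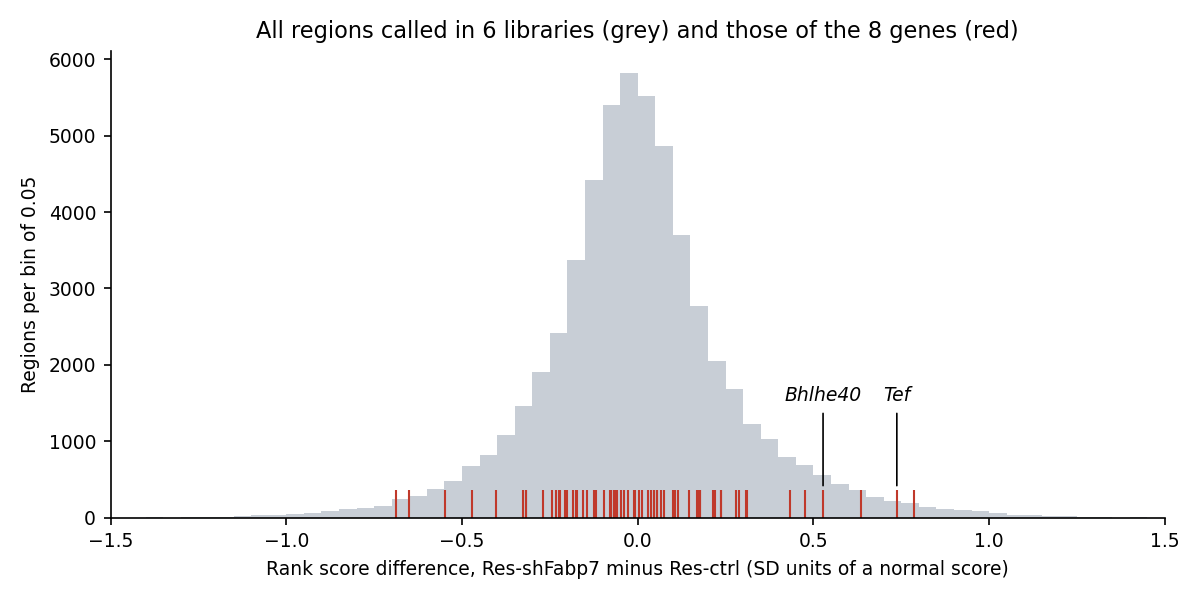
Difference in rank score between Res-shFabp7 and Res-ctrl (standard deviations of a normal score) for all 56610 regions called in 6 libraries (grey histogram, regions per bin) and the 68 at the 8 genes (red ticks). The ticks spread over both sides of 0, and the labelled Tef and Bhlhe40 regions, at 0.74 and 0.53, have the lowest adjusted p of the 68.

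The other clock genes, 18 in number, which comprise the core activators and repressors with their kinases and F-box proteins, held 189 regions, 77 (40.7%) of them called in all 6 libraries. Another 4 of the 189 (2.12%) were called only with Res-shFabp7, beside 2.28% of all regions: 2 at Arntl (BMAL1), 1 at Per1 and 1 at Nr1d1 (REV-ERBα). Called only with Res-ctrl were 0, beside 0.155%. With equal numbers of peaks there were 1 and 0 of 154, beside 1.13% and 0.527% of all regions. Peaks numbered 136 to 150 with Res-shFabp7 and 116 to 133 with Res-ctrl. The whole lists did not overlap in length either, at 100243 to 105796 and 82153 to 96310 peaks. Of the 77 common regions, 0 passed in limma in either direction. An unadjusted p under 0.05 was found for 10, 5 higher and 5 lower, beside 15.7% of all common regions.

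The genes whose share of peaks followed that of Rora most closely over the 6 libraries, of 506 genes with at least 20 peaks in each, were Scaf8 (Pearson r = 0.956), Mbd2 (0.919) and Sntb1 (0.831). The 6 points share library depth, and the values are a description.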

How the data were processed

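ATAC-seq, in which a transposase cuts open DNA, was deposited as 1 peak list per library. The submitters' processing notes name MACS2 2.2.7.1, Bowtie 1.1.2, Trim Galore 0.6.5 and cutadapt 2.8, with build mm10; the sources used here do not give read shift, duplicate handling or caller mode. Per the labels' protocols, libraries had 35 to 75 M read pairs of 76 bases. The authors' lists, ending at a q of 0.05, give −log10 of each peak's q-value and p-value, the pileup (summit coverage, a signal) and the fold (a ratio to local background), which are the authors' own values for that peak.

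Starts and summits appear to count from 0 and are printed from 1. Overlapping peaks (at least 1 bp) of the 6 lists were merged into regions; gene positions came from RefSeq, without exons, so introns and UTRs are not given. A region specific to a group had peaks in 3 of its 3 libraries and 0 of the other 3. Two-sided exact permutation tests compared numbers of peaks (3 against 3, smallest p 0.1), and ranks of summit pileup were compared by limma 3.58.1 in R 4.3.3, checked on simulated data. Groups came from the sample titles; the labels call the replicates biological. The 8 genes and the lists were chosen with earlier results of these data known. All 8 were described, with every group-specific region, the region at or nearest a listed start and the highest region of each. Alternatives were a q of 0.01 or 0.001, equal numbers of peaks, a gene distance of 20 kb, other joining and counting rules, other height scales, leaving out each library and a replicate block; the comparison with Res-ctrl replicate 3 alone was chosen after seeing the data. The result of 1 other clock gene is not reported here.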

Additional observations from a re-analysis of the deposited data

How the results depend on the processing

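The difference of 12 peaks at the 8 genes kept its sign at a q of 0.01 or 0.001, at a gene distance of 20 kb and without each library in turn (7.5 to 18), and was reversed to −3 with equal numbers of peaks. The difference per 1000 peaks ranged from −0.103 to −0.0208 without each library. The 3 regions called only with Res-shFabp7 became 1 with equal numbers of peaks and 5 when 2 of 3 libraries sufficed. They became 2 at a gene distance of 20 kb and 2 when peaks within 200 bp were joined. Without each library in turn they ranged from 3 to 8. Against Res-ctrl replicate 3 alone there were 4 of 159 (2.52%), beside 4.13% of all regions. The 0 regions called only with Res-ctrl became 1 with equal numbers, 1 when 2 of 3 libraries sufficed, and 0 to 3 without each library, with 3 reached without Res-shFabp7 replicate 1. The 68 regions called in all 6 libraries became 42 when peaks had to cover 50% of a region. Of 80 pairs of a gene and a setting, 77 kept the difference in peaks within the spread between libraries; the 3 that did not were all with equal numbers of peaks, where Rora went from 7.67 to −1.33, Nfil3 from 0 to −2 and Bhlhe41 from 1.33 to −0.667.

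Same-numbered libraries showed no shared deviation: their deviations correlated at −0.02, 0.02 and −0.02. Whether they were prepared together cannot be told from these values. With the replicate block the difference stayed 12 peaks (exact sign-flip permutation p = 0.25) and −0.0604 per 1000 peaks (p = 0.5), and limma called 0 regions of the 8 genes in either direction. A p of 0.25 is the smallest that the sign-flip test can reach with 3 pairs, so it cannot be set beside the p of the unpaired test. In each of the other settings of the limma fit the number called at these genes was also 0. Depth limits these values: a weak region can be missed in the shallower Res-ctrl replicates 1 and 2, and neither exons nor reads were used here.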
